A study of Mus musculus with 27 samples.

Results

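The squamous program described here is a set of 36 genes that build stratified squamous epithelium, measured by RNA sequencing in 27 pieces of mouse rectum. The members came from 37 symbols for the cornified envelope, the desmosome and their regulators, chosen by name with earlier results of these data known. Each was taken as 1 row of the deposited table of 19690 genes. Where a symbol had several rows, as Flg did, the row with the highest mean count was used, and Perp1 matched no row. The 15 irradiated mice had received a single dose of 25 Gy of X-rays to the lower pelvis with the rest of the body shielded by lead, and their rectum was removed after 4 h (radiation-4h), 1 day (radiation-1d), 3 days (radiation-3d), 2 weeks (radiation-2w) or 8 weeks (radiation-8w). The 12 control mice were anaesthetised and sham-irradiated, and were taken at 4 h (control-4h), 3 days (control-3d), 2 weeks (control-2w) and 8 weeks (control-8w), so that the mice at 1 day were set against control-4h. Each group held 3 libraries, which the study's methods call biological replicates and which are taken here as 1 mouse each, from female C57BL/6J animals aged 8 to 10 weeks when obtained. A library was made from a piece of rectum split along its length and sums all of its cell types.

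The lining of the normal rectum is a single-layered columnar epithelium, and stratified squamous epithelium begins at the anal canal next to it. In squamous epithelium the transcription factor p63 (Trp63) maintains the basal layer, and cells that leave this layer tie to each other by desmosomes, whose cadherins (desmogleins and desmocollins) are anchored to keratin filaments through plakoglobin, plakophilins and plakins. In the upper layers transglutaminases crosslink precursors such as involucrin, loricrin and the small proline-rich proteins into an insoluble cornified envelope. Several desmosomal genes and the regulator Klf5 also serve columnar cells, so a gene of this list is not by itself a squamous marker.

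Totals ran between 17966356 and 23281174 counts per library, and the 19 columnar epithelium genes listed as a check of the tissue summed to between 11984 CPM (counts per 1000000, after scaling by the trimmed mean of M values, TMM) in radiation-2w and 29667 CPM in control-3d. Some libraries stood apart from the others of their group. Of the 8-week irradiated libraries, replicate 2 was far below the other 2 in Sprr1b, Flg, Dsg1a and Lor, and replicate 3 alone had high levels of skeletal muscle genes. Replicate 1 of radiation-1d and replicate 3 of radiation-4h held traces of squamous genes that were at or near 0 in the other mice of their groups. Replicate 3 of radiation-2w was far above its group in Tgm1. Calls that rest on these libraries are given below also without them.

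In control rectum the members fell into 2 ranges of expression. For 16 of the 36 the mean over the 12 control libraries was under 1 CPM, and these members are called near-silent below: Trp63, Sox2, Pax9, Grhl3, Dsg1a, Dsg3, Dsc3, Ivl, Flg, Sprr1b, Sprr3, Cnfn, Tgm1, Calml3, Lypd3 and Gjb6. Sprr1b had 0 counts in all 12 control libraries, Flg in 11 of them, and Dsg1a, Ivl, Sprr3, Cnfn and Gjb6 in 10 each. The other 20 members were read in every control library. By FPKM, fragments scaled for transcript length and depth, which allows a comparison between genes, Tgm3 had the highest mean level in controls (894 FPKM), followed by Klf5 (246 FPKM), Dsp (117 FPKM), Dsg2 (117 FPKM) and Jup (103 FPKM). In the 8-week irradiated mice the order of mean levels was another, with Ly6d at 532, Dmkn at 289, Cnfn at 288, Sprr1a at 236 and Tgm3 at 213 FPKM, against control-group means of 8.399, 1.86, 0.559, 4.04 and 894 FPKM over all 12 control libraries.

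**Figure D1:**
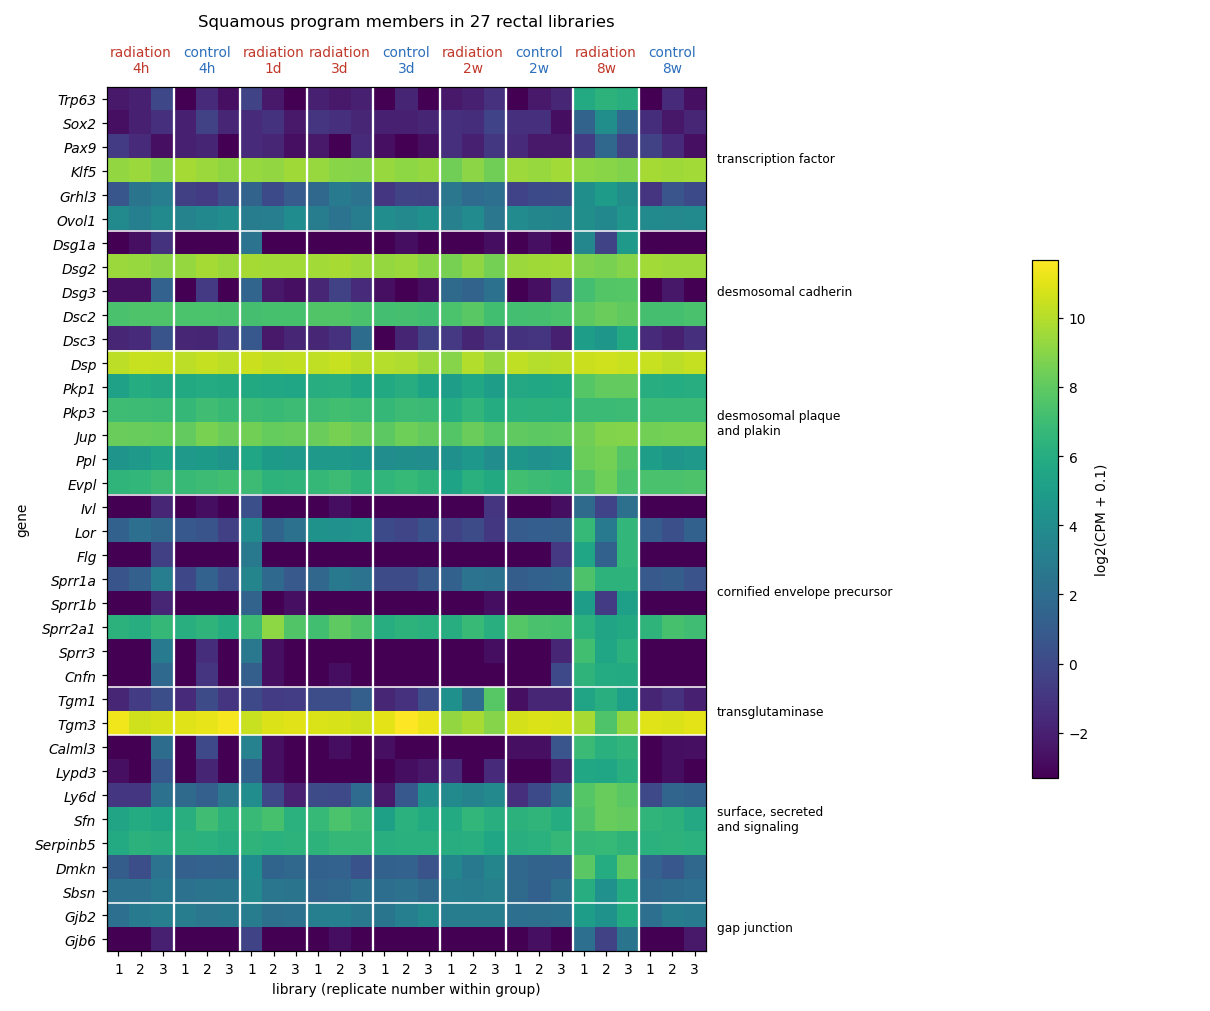
Levels of the 36 members (rows, by role) in each of the 27 libraries (columns, replicates 1 to 3 of each group), as log2(CPM + 0.1) on the color scale. The 16 near-silent members are dark in nearly all libraries outside radiation-8w, apart from Grhl3, the traces in radiation-4h replicate 3 and radiation-1d replicate 1, and Tgm1 in radiation-2w.

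At 8 weeks, the chronic stage of the model, genes of every role of the squamous program were higher in irradiated than in control rectum, from the regulators Trp63 and Grhl3 to the desmosomal cadherins Dsg3 and Dsc3, the envelope precursors and the gap junction genes, while 4 members that were well expressed in control rectum, Klf5, Dsg2, Sprr2a1 and Tgm3, were lower. Of the 36 members, which all passed the filter on low counts, 25 were higher and 4 lower at an adjusted p under 0.05 by edgeR's quasi-likelihood test, and 7 did not pass (Pax9, Ovol1, Dsp, Pkp3, Jup, Evpl and Serpinb5). Over all genes tested 38.0% passed, 21.5% as higher and 16.5% as lower. The irradiated and control libraries did not overlap for 31 members, where they did not for 53.2% of all genes tested. However, 14 members had under 10 counts in each control library and passed the filter only through the irradiated libraries, so they had to differ and their number is no support. Among the other 22 members 11 were higher, 4 lower and 7 did not pass, with a median log2 fold change of 1.22, against 0.01 over all genes tested. Of these 22, Grhl3 (8, 29 and 19 control counts, called higher) and Pax9 (13, 5 and 1, not called) also needed irradiated libraries to pass the filter. In tissue of mixed cell types, more cells of a type and more RNA per cell cannot be told apart.

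Among the 6 transcription factors, Trp63, Sox2 and Grhl3 were higher at 8 weeks, Klf5 was lower and Pax9 and Ovol1 did not pass. Trp63 (chromosome 16 of mm9, 25683849 to 25892188) had 57.2, 81.3 and 71.1 CPM in the irradiated mice, against 0, 0.248 and 0.0502 CPM in the controls. All 3 irradiated libraries lay within a factor of 1.42 of each other and far above the controls (log2 fold change 9.33, SE 0.44, adjusted p = 2.37e-05). Grhl3, a grainyhead-like factor of barrier formation, was at 17.3, 30.1 and 17.04 CPM in irradiated mice and 0.395, 1.44 and 0.953 CPM in controls (log2 fold change 4.48, adjusted p = 0.000307). Sox2, a factor of foregut and other stratified epithelia, had 2.67, 17.2 and 3.45 CPM, against 0.296, 0.0991 and 0.201 CPM in controls (5.19, adjusted p = 0.00377). Its irradiated libraries differed, with replicate 2 well above the other 2 (log2 fold change 3.87 without it, adjusted p = 0.00145), and Pax9, a factor of the esophagus, stood apart in the same mouse (0.534, 3.21 and 0.689 CPM, against 0.641, 0.248 and 0.0502 CPM in controls, adjusted p = 0.105). Klf5, a factor of proliferating crypt cells and of basal keratinocytes, had 554, 511 and 464 CPM in irradiated mice and 822, 737 and 775 CPM in controls (-0.65, adjusted p = 0.00463). Ovol1, a regulator of epidermal differentiation, had 12.8 to 22.6 CPM in the irradiated and 13.1 to 14.5 CPM in the control mice (adjusted p = 0.296).

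The 5 desmosomal cadherin genes lie together on chromosome 18 of mm9, between 20119431 (Dsc3) and 20763022 (Dsg2), and did not move as one. Dsg3, the desmoglein of the basal layer in epidermis and of all layers in oral mucosa, had 146, 206 and 210.0 CPM in irradiated mice, against 0, 0.0991 and 0 CPM in controls. With 11375 counts in the irradiated group and 2 in the control group, the ratio was 5644 (95% counting interval 1562 to 46614, exact, counting error only, adjusted p = 6.81e-06). Dsc3, its usual desmocollin partner, was at 34.5, 24.9 and 57.6 CPM in irradiated mice, against 0.247, 0.149 and 0.301 CPM in controls (log2 fold change 7.32, SE 0.45, adjusted p = 5.52e-05). Dsc2, which columnar epithelium also uses, had 247, 299 and 254 CPM, against 152, 151 and 164 CPM in controls (0.74, adjusted p = 0.00148). Dsg2, the desmoglein of simple epithelia, was lower, with 439.6, 397 and 489 CPM in irradiated mice, against 781, 721 and 708 CPM in controls (-0.78, SE 0.12, adjusted p = 0.00236). Dsg1a, a desmoglein of the upper layers, had 12.04, 0.752 and 28.1 CPM and 0 counts in all 3 controls, and with 3 counts over the control group as the floor it was at least 276-fold higher (adjusted p = 0.0156, and 0.0833 by limma on log2(FPKM + 1)).

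Of the 6 plaque and plakin genes, Pkp1 and Ppl were higher and Dsp, Pkp3, Jup and Evpl did not pass. Pkp1, a plakophilin of stratified epithelium, had 212, 272 and 268 CPM in irradiated mice, against 65.01, 62.2 and 64.8 CPM in controls (log2 fold change 1.92, SE 0.12, adjusted p = 5.15e-05). Ppl (periplakin), a plakin of the cornified envelope, had 318, 372 and 204 CPM, against 34.04, 24.6 and 26.1 CPM (3.36, adjusted p = 0.000102). Its partner Evpl (envoplakin) was at 202, 331 and 164 CPM in irradiated and 167, 169 and 182 CPM in control mice, with replicates 1 and 2 above the controls and replicate 3 below them (0.38, adjusted p = 0.229). The constitutive parts of the desmosome had high levels in both groups: desmoplakin (Dsp) lay at 1387 to 1562 CPM in irradiated and 1149.8 to 1349.5 CPM in control mice, plakoglobin (Jup) at 340.0 to 478 CPM in irradiated and 364 to 375 CPM in control mice, and Pkp3 at 121 to 125 CPM in irradiated and 118 to 121 CPM in control mice, with log2 fold changes of 0.14, 0.15 and -0.01.

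Of the 8 precursors of the cornified envelope 7 were higher at 8 weeks and 1, Sprr2a1, was lower. Cnfn (cornifelin) had 87.99, 60.6 and 56.3 CPM in irradiated mice and 0 counts in all 3 controls, so it was at least 1378-fold higher (adjusted p = 6.21e-05). Sprr3, a small proline-rich protein of esophagus and other internal squamous linings, had 142, 47 and 77.4 CPM, against 0 counts in the controls (at least 1795-fold, adjusted p = 0.000389). Both were read in each irradiated library at levels that no other library of the series reached. Sprr1a had 182, 84.02 and 82.2 CPM, against 1.73, 2.08 and 1.35 CPM in controls (log2 fold change 6.03, SE 0.42, adjusted p = 8.16e-05). For Lor, Flg, Sprr1b and Ivl replicate 2 lay well below replicates 1 and 3, which was not so for Cnfn and Sprr1a. Loricrin (Lor), the main protein of the epidermal envelope, had 108, 7.47 and 98.1 CPM, against 1.92, 1.19 and 2.41 CPM (5.24, adjusted p = 0.00455, and 5.77 without replicate 2). Filaggrin (Flg) had 47.03, 2.46 and 99.3 CPM, Sprr1b 32.4, 0.502 and 35.7 CPM and involucrin (Ivl) 3.54, 0.702 and 4.58 CPM, each against 0 counts in all 3 controls (at least 1004-, 464- and 59.5-fold, adjusted p = 0.0135, 0.0196 and 0.0064). Without control-8w replicate 3 Sprr1b had an adjusted p of 0.051.

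Sprr2a1 had 76.1, 43.99 and 56.3 CPM in irradiated mice, against 86.9, 157 and 133 CPM in controls (log2 fold change -1.14, adjusted p = 0.0135), and without control-8w replicate 2 its adjusted p was 0.0528. Reads of Sprr2a1 and its near-identical copy Sprr2a3 cannot be told apart with certainty, since how reads that fit both were counted is not stated in the sources. With the reads of both summed the log2 fold change was -0.70 (adjusted p = 0.0424), a smaller change in the same direction. Flg, whose repeats were counted in 8 rows of the table, was higher at 8 weeks also with those rows summed (adjusted p = 0.00156).

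**Figure D2:**
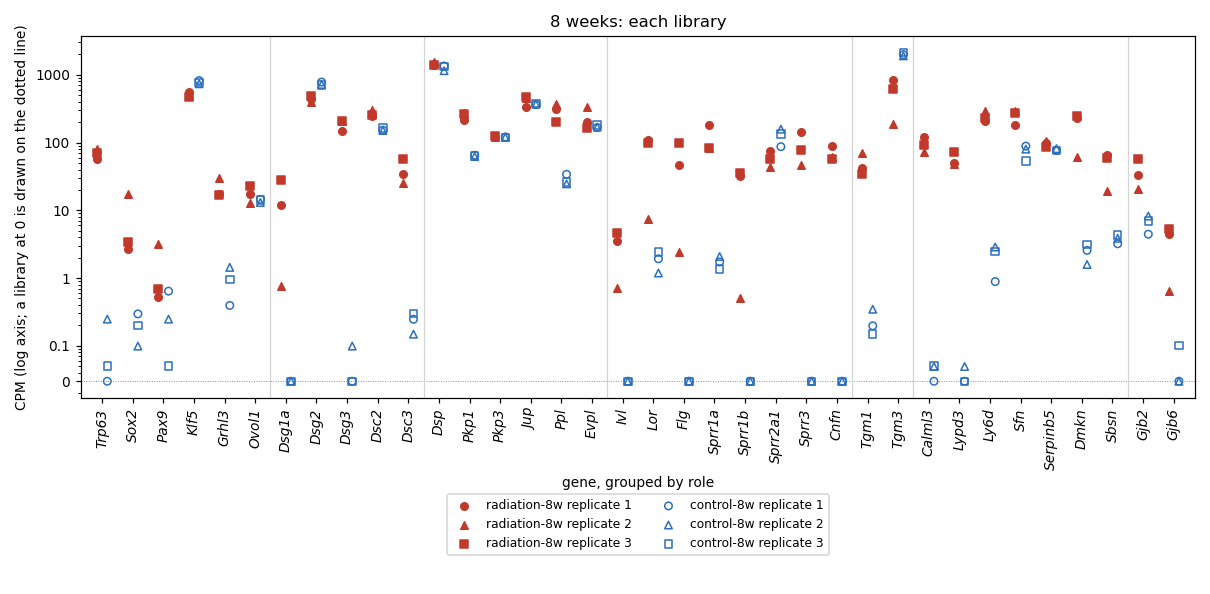
CPM (log axis) of each member at 8 weeks, filled red for the 3 irradiated and open blue for the 3 control libraries, with 1 symbol per replicate and libraries at 0 on the dotted line. Irradiated replicate 2 (triangles) lies below the other 2 for Dsg1a, Ivl, Lor, Flg, Sprr1b and Gjb6 and above them for Sox2 and Pax9.

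Lor, Sprr2a1, Sprr1b, Sprr3, Sprr1a and Ivl lie in 1 stretch of chromosome 3 of mm9, between 91884197 and 92377637, the epidermal differentiation complex. RefSeq promoters (GRCm38.p6, 250 bases before to 50 after the start) matched 22 of the 36 members, and 4 from this complex are shown because these precursors, near-silent or low in controls, were all higher at 8 weeks. Capitals mark the TATA box letters TATAAA (reverse TTTATA) and the AP-1 motif TGANTCA (its reverse is the same), searched on both strands, and no motif overlapped another in these 4.
Sprr1a, chr3:92485832-92486131, minus strand: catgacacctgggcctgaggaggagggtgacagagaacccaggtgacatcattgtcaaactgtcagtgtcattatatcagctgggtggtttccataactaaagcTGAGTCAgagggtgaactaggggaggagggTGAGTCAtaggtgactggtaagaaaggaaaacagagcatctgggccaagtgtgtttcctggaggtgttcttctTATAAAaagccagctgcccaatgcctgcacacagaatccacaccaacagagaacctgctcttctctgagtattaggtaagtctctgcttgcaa
Sprr3, chr3:92458671-92458970, minus strand: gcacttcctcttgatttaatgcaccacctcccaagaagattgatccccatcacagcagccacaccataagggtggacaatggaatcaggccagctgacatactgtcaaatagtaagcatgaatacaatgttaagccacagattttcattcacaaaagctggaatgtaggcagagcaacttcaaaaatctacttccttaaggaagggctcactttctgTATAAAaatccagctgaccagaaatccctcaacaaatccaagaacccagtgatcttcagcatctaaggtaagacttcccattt
Ivl, chr3:92573686-92573985, minus strand: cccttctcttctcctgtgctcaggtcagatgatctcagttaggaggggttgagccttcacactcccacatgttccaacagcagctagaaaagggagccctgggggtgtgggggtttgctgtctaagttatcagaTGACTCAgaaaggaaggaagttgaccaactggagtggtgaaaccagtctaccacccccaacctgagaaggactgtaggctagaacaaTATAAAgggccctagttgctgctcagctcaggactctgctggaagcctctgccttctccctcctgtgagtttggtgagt
Flg, chr3:93273296-93273595, plus strand: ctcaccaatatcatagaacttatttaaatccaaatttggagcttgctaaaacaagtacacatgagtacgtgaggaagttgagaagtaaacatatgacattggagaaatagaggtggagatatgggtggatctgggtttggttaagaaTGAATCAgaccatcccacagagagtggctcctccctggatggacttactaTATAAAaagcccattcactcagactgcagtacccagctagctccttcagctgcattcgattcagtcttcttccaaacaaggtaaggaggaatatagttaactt
Of the 22 members 8 had the AP-1 letters in at least 1 of their promoters (Dmkn, Flg, Ivl, Lor, Sbsn, Serpinb5, Sprr1a and Sprr1b), against 8.97% of all 27025 genes counted the same way, and 7 of the 22 had TATAAA, against 15.7%. Of all 32851 single promoters 7.81% held the AP-1 letters and 13.6% TATAAA. The grainyhead-like motif AACCNGTT (reverse AACNGGTT) was found for 2 of the 22, Gjb6 and Sfn, against 2.35% of all genes and 2.09% of single promoters. Of the members with both TATAAA and the AP-1 letters, Sprr1a differed from the rest in holding the AP-1 letters at 2 places. A match describes letters only, and binding was not measured.

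The transglutaminases moved in opposite directions at 8 weeks. Tgm1, the membrane-bound enzyme of keratinocytes that crosslinks the envelope, had 42.7, 69.4 and 34.7 CPM in irradiated mice, against 0.197, 0.347 and 0.151 CPM in controls (log2 fold change 7.64, SE 0.40, adjusted p = 3.68e-05). Tgm3, a soluble transglutaminase and the most highly expressed member in control rectum, had 829.9, 188 and 622 CPM, against 1984, 1904 and 2136 CPM (-1.91, SE 0.47, adjusted p = 0.0163). All 3 irradiated libraries lay below the controls, with replicate 2 the lowest, and without control-8w replicate 3 the adjusted p was 0.0512.

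Of the 7 surface, secreted and signaling members 6 were higher at 8 weeks. Calml3, a calmodulin-like protein of epithelial cells, had 119.8, 71.98 and 90.5 CPM in irradiated mice, against 0, 0.0495 and 0.0502 CPM in controls. The ratio was 2849 (95% counting interval 788 to 23533, adjusted p = 7.96e-06). Lypd3, a GPI-anchored surface protein of the suprabasal layers, had 50.8, 47.7 and 71.6 CPM, against 0, 0.0495 and 0 CPM (ratio 3424, interval 614 to 135276, adjusted p = 7.96e-06). Ly6d, another GPI-anchored protein of squamous cells, had 207, 290.0 and 229 CPM, against 0.888, 2.87 and 2.46 CPM (log2 fold change 6.82, adjusted p = 4.09e-05), and these 3 were even across the irradiated mice. The secreted keratinocyte proteins dermokine (Dmkn) and suprabasin (Sbsn), neighbors on chromosome 7, were high in replicates 1 and 3 and lower in replicate 2, with 233, 61.3 and 244 CPM of Dmkn, against 2.56, 1.59 and 3.11 CPM in controls, and 64.98, 19.3 and 58.9 CPM of Sbsn, against 3.21, 3.86 and 4.32 CPM (adjusted p = 0.000306 and 0.000897). Sfn (14-3-3 sigma), a p53 target that holds cells in G2, had 179.7, 291 and 274 CPM, against 88.6, 80.0 and 53.3 CPM (1.70, adjusted p = 0.00139). Serpinb5 (maspin) had 85.97 to 104 CPM in irradiated and 76.7 to 81.4 CPM in control mice (adjusted p = 0.0802).

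Both connexin members were higher at 8 weeks. Gjb2 (connexin 26) had 33.7, 20.6 and 57.7 CPM in irradiated mice, against 4.44, 8.22 and 6.92 CPM in controls (log2 fold change 2.47, SE 0.40, adjusted p = 0.00253). Gjb6 (connexin 30), its neighbor on chromosome 14, had 4.42, 0.652 and 5.32 CPM, against 0, 0 and 0.1004 CPM, a ratio of 105 (95% counting interval 28.8 to 874, adjusted p = 0.0044). For both, replicate 2 was the lowest of the irradiated libraries.

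The 3 irradiated mice at 8 weeks differed widely in some members. The highest irradiated library exceeded the lowest by over 3 times for 12 members, and in 10 of these the lowest was replicate 2: Sprr1b (71.3 times), Flg (40.4 times), Dsg1a (37.4 times), Lor (14.4 times), Gjb6, Ivl, Tgm3, Dmkn, Sbsn and Sprr3. For the other 2, Sox2 and Pax9, replicate 2 was the highest. Trp63, Dsg3, Lypd3 and Ly6d varied by at most 1.502 times, and the envelope and suprabasal members Cnfn, Calml3, Ppl and Tgm1 by 1.56, 1.66, 1.83 and 2.001 times, with replicate 3 the lowest for Cnfn, Ppl and Tgm1. The FPKM of Flg was 2.45, 0.0898 and 4.44 times that of Trp63 in replicates 1, 2 and 3, and that of Dsg1a was 0.0904, 0.00413 and 0.154 times that of Dsg3. Flg and Dsg1a were thus lowest against Trp63 and Dsg3 in replicate 2. Without replicate 2 all 29 calls were kept and Ovol1 joined them, and without replicate 1 or 3 all 29 were kept too.

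Other gene lists were measured at 8 weeks as well. All 12 squamous keratin genes that passed the filter were higher, with sums of 5721, 8011 and 6945 CPM in the irradiated mice and 10.8, 14.9 and 12.3 CPM in the controls. Of these 12, 6 had under 10 counts in each control library and had to differ, and the other 6 were all higher, where 21.5% of all genes tested were. Krt16, 1 of the other 6, had 2, 17 and 4 counts in the controls and also needed irradiated libraries to pass the filter. Of 48 other cornification and stratification genes in the table, 39 passed the filter, and 32 were higher and 5 lower, Ovol2 and Grhl2 being among the lower ones. Here 22 genes had under 10 counts in each control library, all of them among the higher ones, and of the other 17 genes 10 were higher, 5 lower and 2 not called. Of these 17, Spink5 (0, 12 and 15 control counts), Klk8 (9, 12 and 5) and Trim29 (11, 9 and 17) also needed irradiated libraries to pass the filter. Among the higher ones Trim29 (log2 fold change 7.38, adjusted p = 4.81e-06) and the factor Tfap2a (6.09, adjusted p = 3.82e-05) were even across the mice. Tfap2a, with 3 counts in each control library, was 1 of the 22 and had to differ. Of 10 basal layer and hemidesmosome genes, Col17a1 (8.03), Cdh3 (4.56) and Sox15 were higher, the last from 1.21, 2.56 and 2.17 CPM against 0 counts in the controls, and the other 7 did not pass. Sox15 and Col17a1 (11, 6 and 10 control counts) also needed irradiated libraries to pass the filter, and Cdh3 had 16, 10 and 17 control counts, near its limit. Perp, a tetraspan protein of desmosomes and a p53 target, was higher as well (517, 491 and 497 CPM, against 238, 265 and 259 CPM, adjusted p = 0.00048). Of 19 columnar epithelium genes 14 were lower and 2 higher (Cdx2 and Muc2), and their sum was 18529.7, 14679 and 17550 CPM in irradiated and 27682, 26818 and 25226 CPM in control mice.

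Lists for skin appendages and nearby tissues were also measured at 8 weeks. Of 13 hair follicle genes in the table only Foxn1 passed the filter, and it was not called (adjusted p = 0.243). Sums of the 13 were 3.25, 5.72 and 5.02 CPM in irradiated and 2.07, 2.28 and 2.06 CPM in control mice, and the hair keratin genes Krt27, Krt28, Krt81 and Krt86 and the factor Hoxc13 had 0 counts in all 6 libraries. Of the same list Msx2 had 1.02, 0 and 1.03 CPM and Padi3 0.243, 3.36 and 0.689 CPM in irradiated mice, against 0 counts of both in the controls. Of 4 melanocyte genes Tyr and Tyrp1 had 0 counts in all 6 libraries. Pmel had 73, 40 and 41 counts in irradiated and 29, 45 and 46 counts in control mice, and Dct 6, 6 and 6 against 6, 4 and 2 counts. Sums of the 4 were 3.83, 2.31 and 2.31 CPM in irradiated and 1.73, 2.43 and 2.41 CPM in control mice. Sums of the 8 sebaceous gland genes were 76.5, 69.9 and 105 CPM in irradiated and 106, 98.9 and 94.8 CPM in control mice, Soat1 was lower, and Awat1, Elovl3 and Mc5r were above 1 CPM only in irradiated replicate 3 (0.194, 0.251 and 3.45 CPM of Mc5r in irradiated and 0.0987, 0.149 and 0.0502 CPM in control mice). Sums of the 11 skeletal muscle genes were 35.7, 9.13 and 3401 CPM in the irradiated and 18.1, 23.5 and 45.8 CPM in the control mice, so that replicate 3 stood alone. Of the 9 that passed the filter Actn3 alone was called (log2 fold change 7.41, adjusted p = 0.04). With 15, 3 and 7 control counts, Actn3 also needed irradiated libraries to pass the filter. Of 9 genital tract and urothelium genes Upk1b and Esr1 were higher and Upk1a, Hoxa13 and Hoxd13 lower. Sums of the 9 were 104, 151 and 93.1 CPM, against 269.7, 289 and 295 CPM. The control sums were mostly Hoxd13 (3624, 4127 and 4035 counts) and Hoxa13 (1448, 1283 and 1393 counts), so they say little about the other genes. Esr1 had 437, 237 and 375 counts, against 133, 100 and 117. Upk1b had 83, 173 and 71 counts, against 14, 12 and 6, and needed irradiated libraries to pass the filter. The part of these tissues in the rise of the members was not tested. Without replicate 3, the library with muscle genes, the same 25 members were higher and Serpinb5 joined them.

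**Figure D3:**
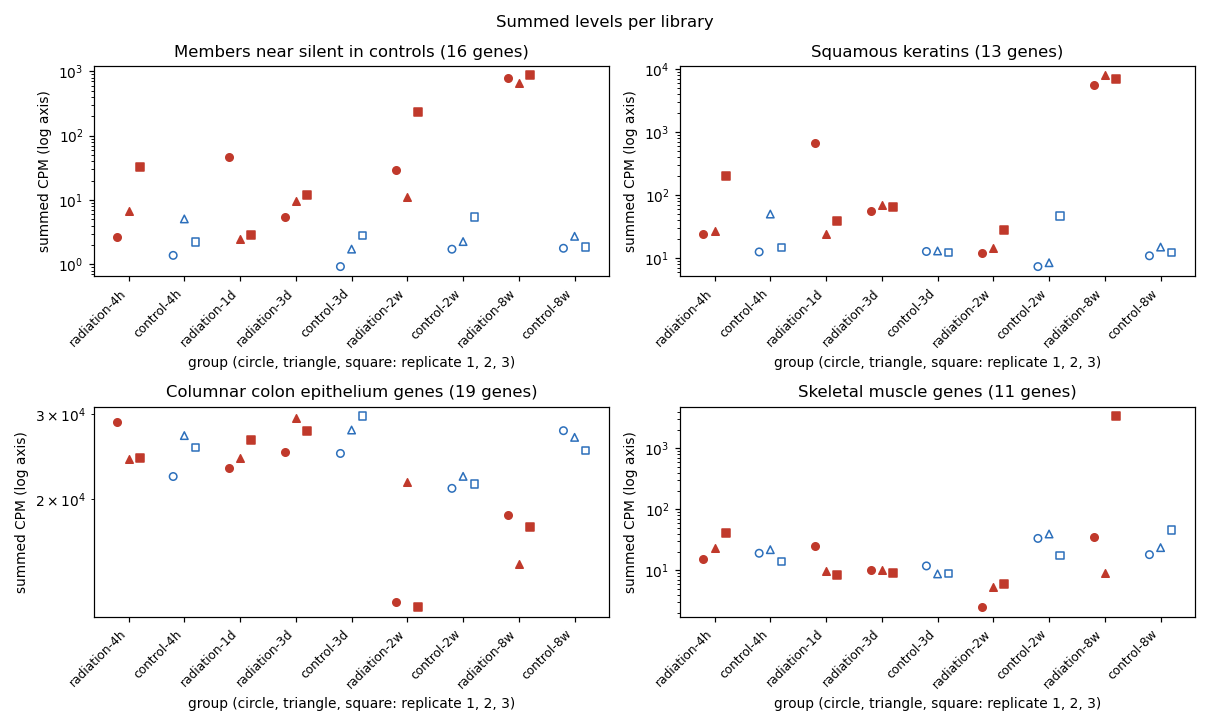
Summed CPM (log axes) of the 16 near-silent members, 13 squamous keratins, 19 columnar epithelium genes and 11 skeletal muscle genes in each library, red filled for irradiated and blue open for control mice. Near-silent members and squamous keratins are higher in all 3 radiation-8w libraries than in any other, and skeletal muscle genes are high in radiation-8w replicate 3 alone.

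At 2 weeks, the subacute stage, the picture was different: the regulator Grhl3, the cadherin Dsg3, Tgm1, Ly6d, Dmkn, Sbsn and Gjb2 were higher in irradiated mice, and Klf5, Dsg2, Evpl, Lor, Sprr2a1 and Tgm3 were lower. Of the 23 members that passed the filter 7 were higher and 6 lower, where 16.5% and 9.30% of all genes tested were (25.8% in either direction). The other 13 members, among them Trp63, Ivl, Flg, Sprr3 and Cnfn, were too low to test. Dsg3, Tgm1 and Ly6d reached 10 counts in fewer than 3 control libraries and so passed the filter only through the irradiated ones. Trp63 was at 0.101, 0.149 and 0.338 CPM in irradiated and 0, 0.1003 and 0.2003 CPM in control mice, while Grhl3 was at 5.95, 3.72 and 4.399 CPM, against 0.707, 0.953 and 1.002 CPM (log2 fold change 2.38, adjusted p = 0.00535). Dsg3 had 3.53, 2.63 and 4.79 CPM, against 0, 0.0501 and 0.551 CPM (4.13, adjusted p = 0.0236), and Ly6d had 14.1, 10.4 and 13.3 CPM, against 0.303, 0.953 and 4.01 CPM (2.82, adjusted p = 0.0408). In none of these 3 did the groups overlap, as in 17 members in all and 48.9% of all genes tested, though the levels were far under those at 8 weeks. Dmkn had 11.7, 6.59 and 11.3 CPM, against 3.18, 2.61 and 2.504 CPM, Sbsn 8.48, 7.98 and 9.28 CPM, against 3.59, 2.41 and 4.51 CPM, and Gjb2 7.72, 7.68 and 7.78 CPM, against 4.45, 4.56 and 4.76 CPM (adjusted p = 0.00826, 0.0185 and 0.0243). Against all 12 control libraries Ly6d (log2 fold change 1.86, adjusted p = 0.0554) and Gjb2 (0.14, adjusted p = 0.72) did not pass, and control-3d replicate 3 exceeded each irradiated library at 2 weeks in Ly6d.

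Tgm1 varied widely among the irradiated mice at 2 weeks, with 18.1, 4.16 and 221 CPM in irradiated mice, against 0.0505, 0.201 and 0.2003 CPM in controls (log2 fold change 9.01, SE 1.93, adjusted p = 0.0196). Replicate 3 exceeded all 8-week libraries in Tgm1, and without it the adjusted p was 0.00882 with a log2 fold change of 6.13. The neutrophil genes S100a8 and S100a9, chosen after their values were seen, followed the same order, with 1391, 357 and 7099 CPM of S100a8 in the irradiated mice, against 0.303, 0.953 and 0.551 CPM in the controls. All 8 neutrophil genes looked up summed to 3735, 963 and 19655 CPM, against 111, 119.8 and 111 CPM. The control sums were almost all Ly6g, with 109, 117 and 108 CPM. Ly6g had 130, 134 and 200 CPM in the irradiated mice, not in the order of S100a8. The part of these 8 genes in the level of Tgm1 was not tested. Among the lower members, Tgm3 had 607, 829.6 and 497 CPM, against 1648, 1904 and 1709.7 CPM (-1.46, adjusted p = 0.00847). Evpl had 41.9, 74.3 and 54.9 CPM, against 143, 122 and 107 CPM (-1.13, adjusted p = 0.0174), and Sprr2a1 66.04, 108 and 67.2 CPM, against 214, 163 and 156 CPM (-1.15, adjusted p = 0.0179, but -0.50 and 0.271 against all 12 control libraries). Lor, which was higher at 3 days and at 8 weeks, was lower at 2 weeks, with 0.656, 1.04 and 0.435 CPM, against 1.92, 2.11 and 2.25 CPM (-1.56, adjusted p = 0.0303). Klf5 and Dsg2 had log2 fold changes of -0.84 and -0.75. The number of calls rested on single mice: leaving out irradiated replicate 1, 2 or 3 gave 8, 16 or 7 called members, and leaving out control replicate 1, 2 or 3 gave 3, 3 or 6, where Grhl3, Dmkn and Tgm3 were called each time.

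At 3 days, in the acute stage, 3 envelope genes that control rectum expressed, Lor, Sprr1a and Sprr2a1, were higher, while the 5 near-silent ones, Ivl, Flg, Sprr1b, Sprr3 and Cnfn, had at most 1 count in any irradiated library. Lor had 20.2, 19.5 and 22.3 CPM in irradiated mice, against 0.922, 0.787 and 1.28 CPM in controls, with all 3 irradiated libraries close together and far above the controls (log2 fold change 4.33, SE 0.22, adjusted p = 5.12e-05). In the same irradiated libraries Flg, Sprr1b and Sprr3 had 0 counts. Sprr1a had 2.95, 6.67 and 5.15 CPM, against 1.02, 0.984 and 1.73 CPM (1.95, adjusted p = 0.0137), and Sprr2a1 143, 248 and 178 CPM, against 63.8, 83.2 and 73.03 CPM (1.34, adjusted p = 0.00418, and 1.08 with Sprr2a3 summed in). Grhl3 was at 3.25, 7.17 and 5.098 CPM, against 0.4097, 0.738 and 0.691 CPM (3.03, adjusted p = 0.00259). With 8, 15 and 14 control counts, Grhl3 needed irradiated libraries to pass the filter. Sfn (1.19) and Ppl (0.58) were higher too, and Ovol1, with 7.67, 5.08 and 7.87 CPM, against 16.4, 13.4 and 18.6 CPM, was lower (-1.26, adjusted p = 0.00677), as was Tgm3 with 1839, 1717 and 1551 CPM, against 2147, 3273 and 2429.6 CPM (-0.65, adjusted p = 0.0277). Of 22 members tested 6 were higher and 2 lower, where 10.4% and 10.1% of all genes were (20.5% in either direction). Same-numbered mice deviated together at this time, and with the replicate number as a block 13 members passed, 11 higher and 2 lower, the 5 more being Dsg2, Dsc2, Dsp, Tgm1 and Serpinb5 (log2 fold changes 0.31, 0.32, 0.42, 1.5 and 0.37). Tgm1, with 4, 7 and 22 control counts, also needed irradiated libraries to pass the filter. Without irradiated replicate 2, 4 members passed: Grhl3, Lor, Sprr2a1 and Ovol1. Tgm3 did not pass without irradiated replicate 1, 2 or 3 or control replicate 2. Against all 12 control libraries Sprr2a1, Ppl and Tgm3 did not pass (log2 fold changes 0.74, 0.12 and -0.37, adjusted p = 0.117, 0.692 and 0.141).

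At 4 h and 1 day few members moved. At 4 h Grhl3 was higher, with 1.505, 5.39 and 8.46 CPM in irradiated mice, against 0.612, 0.537 and 1.06 CPM in controls (log2 fold change 2.77, adjusted p = 0.0231), and Sfn was lower, with 42.4, 59.95 and 46.1 CPM, against 69.6, 133 and 81.3 CPM (-0.96, adjusted p = 0.0386). These were 2 of 21 members tested, where 11.5% of all genes passed, 5.78% as higher and 5.72% as lower. The libraries of these 2 and of Lor did not overlap, as in 34.3% of all genes. Without radiation-4h replicate 3, which held the squamous traces, the adjusted p was 0.0734 for Grhl3 and 0.12 for Sfn and 1 other member, Ly6d, passed as lower. Without radiation-4h replicate 2 or control-4h replicate 2 no member passed (edgeR, where 3 had an unadjusted p under 0.05 with all libraries), Grhl3 did not pass without control-4h replicate 1, and Sfn did not without radiation-4h replicate 1. Limma on log2(FPKM + 1) without a minimum called neither. At 1 day edgeR called none of 22 members, where 4.00% of all genes passed (1.97% higher and 2.03% lower), while 5 had an unadjusted p under 0.05 (Grhl3, Lor, Sprr1a, Sprr2a1 and Dmkn), DESeq2 called 2, Lor and Sprr2a1, and limma 0. Sprr2a1 had 125, 553 and 198 CPM in irradiated mice, against 71.4, 85.9 and 62.2 CPM in the controls at 4 h, without overlap, as in 24.2% of all genes (log2 fold change 1.98, adjusted p = 0.0648). Replicate 2 set this spread, and its copy Sprr2a3 was even, with 517, 476 and 518 CPM, against 232, 318 and 258 CPM. Lor had 14.9, 2.74 and 4.74 CPM, against 1.68, 1.42 and 0.603 CPM (2.58, adjusted p = 0.0753). Without radiation-1d replicate 1, Sprr2a1 passed as higher and Evpl as lower.

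**Figure D4:**
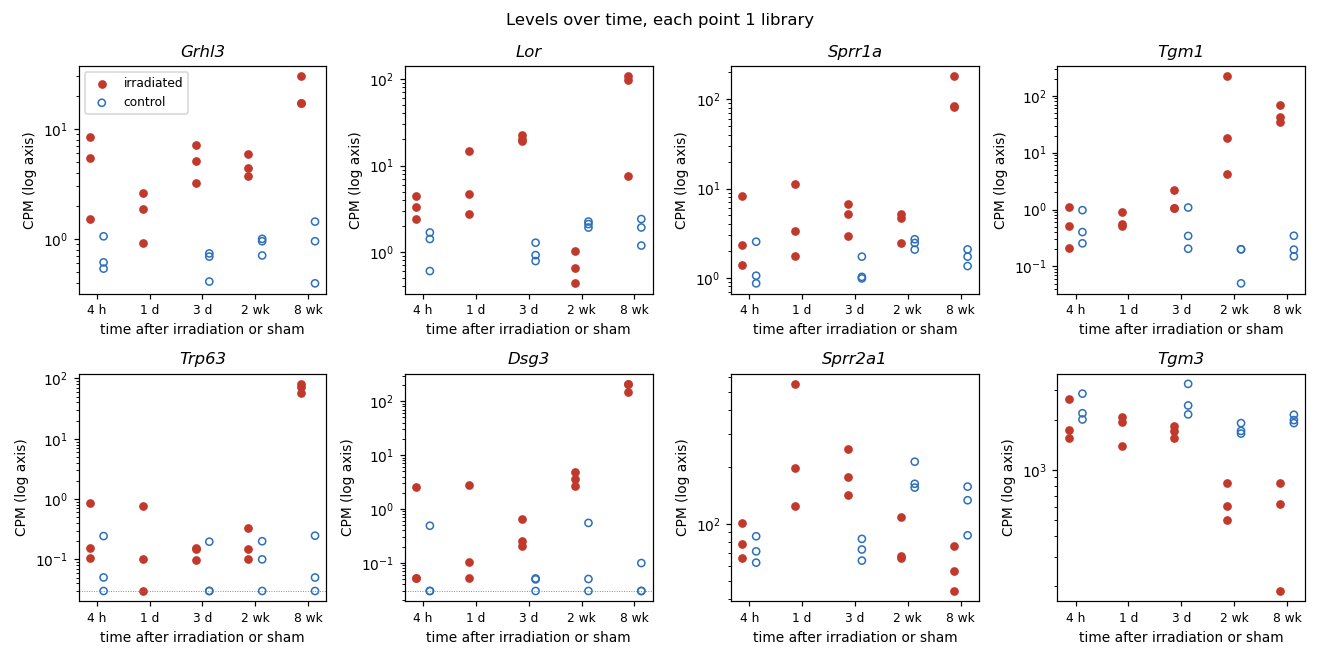
CPM (log axes) of 8 members by time after irradiation or sham, 1 point per library, filled red for irradiated and open blue for control mice; at 1 day no control group was taken, and the dotted line in the panels of Trp63 and Dsg3 stands for 0. Lor is high at 3 days and 8 weeks but under the controls at 2 weeks, Grhl3 is above its controls at 4 h, 3 days, 2 weeks and 8 weeks, and Trp63 is high at 8 weeks alone.

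Genes of the other lists moved early as well. Of 7 squamous keratins tested at 4 h and of 8 at 1 day, Krt15 alone passed (3.18 and 3.20), and at 3 days Krt15, Krt4 and Krt13 were higher (5.18, 4.88 and 3.25). Col17a1, a collagen of hemidesmosomes, was higher at each time up to 3 days (5.36, 3.17 and 3.48, adjusted p = 0.000912, 0.00111 and 0.000743). Csta1, a cystatin with several like copies in the mouse, was higher at the same times (1.47, 3.92 and 2.84) and lower at 2 weeks (-1.82, adjusted p = 0.0115). At 3 days Krt4 (3, 3 and 17 control counts), Krt13 (7, 9 and 0) and Col17a1 (9, 8 and 17) needed irradiated libraries to pass the filter. Krt13, with under 10 counts in each control library, had to differ, so its call is no support. Of the 17 other cornification genes tested, 3 were higher and 2 lower at 4 h, 1 was higher and 1 lower at 1 day, and 4 were higher and 5 lower at 3 days. Of 19 tested at 2 weeks 6 were higher and 6 lower. Over all genes tested 5.78% were higher and 5.72% lower at 4 h, and 1.97% and 2.03% at 1 day. The same shares were 10.4% and 10.1% at 3 days and 16.5% and 9.30% at 2 weeks.

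The radiation effect at 8 weeks was then set against that at 2 weeks in a model with an interaction term. By edgeR it was larger at 8 weeks for 11 of the 36 members and smaller for 0 (0 by DESeq2 as well), and 23 had an unadjusted p under 0.05 in either direction, where 0.784% of all genes tested were larger, 0.495% smaller and 1.28% differed in either direction. Among genes read in all 4 groups, Ppl differed by 3.53 on the log2 scale (SE 0.34, adjusted p = 0.00106), Pkp1 by 2.41 (SE 0.22, adjusted p = 0.00103) and Sprr1a by 5.28 (SE 0.53, adjusted p = 0.0016). Trp63, Dsg3, Dsc3, Lor, Dmkn, Sfn, Cnfn and Calml3 were the others. Of the members called the same way at both times, Grhl3, Ly6d, Sbsn and Gjb2 did not pass (adjusted p = 0.0985, 0.052, 0.0671 and 0.0958), nor did Tgm1, Tgm3, Klf5, Dsg2 and Sprr2a1 (adjusted p = 0.832, 0.74, 0.732, 0.984 and 0.988), which does not show that their effects were equal. Trp63, Dsc3, Cnfn and Calml3, part of the 11, were too low to test at 2 weeks and had at least 10 counts in fewer than 3 libraries outside radiation-8w, as 13 members did. These passed the filter only through radiation-8w, so their number is no support, and of the other 23 members 7 had a larger effect. The count was 7, 7 and 6 without control-8w replicate 1, 2 and 3, 6 without control-2w replicate 3 and 18 without radiation-2w replicate 2, while Dsc3, Pkp1, Ppl, Sprr1a, Calml3 and Dmkn passed whichever library was left out. DESeq2 called 22.

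Single libraries outside 8 weeks also held squamous transcripts. A library was said to stand apart where its CPM + 0.1 was at least 4 times that of the next library of its group and its CPM was at least 1, which held for 25 of 324 pairs of member and group. Of these, 12 were in radiation-1d replicate 1 (Calml3, Flg, Dsg1a, Sprr3, Sprr1b, Ly6d, Lypd3, Cnfn, Dsg3, Ivl, Dsc3 and Dmkn) and 7 in radiation-4h replicate 3 (Sprr3, Calml3, Cnfn, Dsg3, Lypd3, Ly6d and Dsc3). The largest ratios were those of Sprr3 in radiation-4h, with 0, 0 and 6.82 CPM, and of Calml3 in radiation-1d, with 10.01, 0.0508 and 0 CPM. Flg had 6.47, 0 and 0 CPM and Dsg1a 5.104, 0 and 0 CPM in radiation-1d, and Cnfn 0, 0 and 3.44 CPM in radiation-4h, against 0 counts of Flg and Dsg1a and 0, 0.391 and 0 CPM of Cnfn in control-4h. The other cases were Calml3 in control-2w replicate 3 (0.0505, 0.0501 and 1.45 CPM), Ly6d in control-3d replicate 3 (0.102, 1.62 and 15.9 CPM), Dsc3 in radiation-3d replicate 3 (0.203, 0.348 and 3.84 CPM), Tgm1 in radiation-2w replicate 3, and Sox2 and Pax9 in radiation-8w replicate 2. Control libraries thus held such traces too.

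The traces were small beside the 8-week rise for most but not all members. In radiation-1d replicate 1 the 12 members stood at between 1.51% and 39.5% of their mean in radiation-8w (median 7.88%), and in radiation-4h replicate 3 the 7 members stood at between 1.34% and 7.695% (median 3.55%). The lowest share at 1 day was that of Dsg3 and the highest those of Ivl (39.5%) and Dsg1a (37.4%), while Trp63 stood at 1.09%. By FPKM Dsg1a was 1.83 times Dsg3 in this library and 0.165 times in radiation-4h replicate 3, and Flg was 26.4 and 1.61 times Trp63. For Dsg1a, Flg, Ivl, Sprr1b and Gjb6 the level in radiation-1d replicate 1 was above that in radiation-8w replicate 2, the lowest of the 8-week irradiated libraries. For Trp63, Sox2, Grhl3, Dsg3, Dsc3, Sprr3, Cnfn, Calml3 and Lypd3, 9 of the 16 near-silent members, each 8-week irradiated library was above all 24 other libraries. For Tgm1 only radiation-2w replicate 3 and for Pax9 only control-8w replicate 1 was above the lowest 8-week irradiated library.

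Summed over the 16 near-silent members, the 8-week irradiated libraries had 800.3, 664 and 863 CPM, against 1.78, 2.72 and 1.86 CPM in control-8w. The sums were 29.01, 11.3 and 233 CPM in radiation-2w, where Tgm1 made up most of the highest, against 1.72, 2.26 and 5.46 CPM in control-2w, and 5.39, 9.804 and 12.01 CPM in radiation-3d, against 0.922, 1.72 and 2.81 CPM in control-3d. They were 46.3, 2.49 and 2.89 CPM in radiation-1d and 2.698, 6.83 and 32.1 CPM in radiation-4h, against 1.38, 5.08 and 2.21 CPM in control-4h. The squamous keratins were raised in the same libraries, with sums of 681, 24.3 and 38.2 CPM in radiation-1d and 24.4, 27.2 and 201 CPM in radiation-4h, against 12.4, 49.8 and 14.6 CPM in control-4h. Skeletal muscle genes, at 18.1, 23.5 and 45.8 CPM in control-8w, summed to 25.2, 9.85 and 8.502 CPM in radiation-1d and 15.2, 22.9 and 40.2 CPM in radiation-4h, against 19.02, 21.8 and 13.9 CPM, so that the libraries with traces were the highest of their irradiated groups in these as well. Among the controls, keratin sums were highest in control-4h replicate 2 (49.8 CPM) and control-2w replicate 3 (46.5 CPM). Muscle sums were the highest of the group in the former (21.8 CPM). In the latter they were the lowest (17.3 CPM, against 33.3 and 39.4 CPM). The part of other tissue in these traces was not tested.

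**Figure D5:**
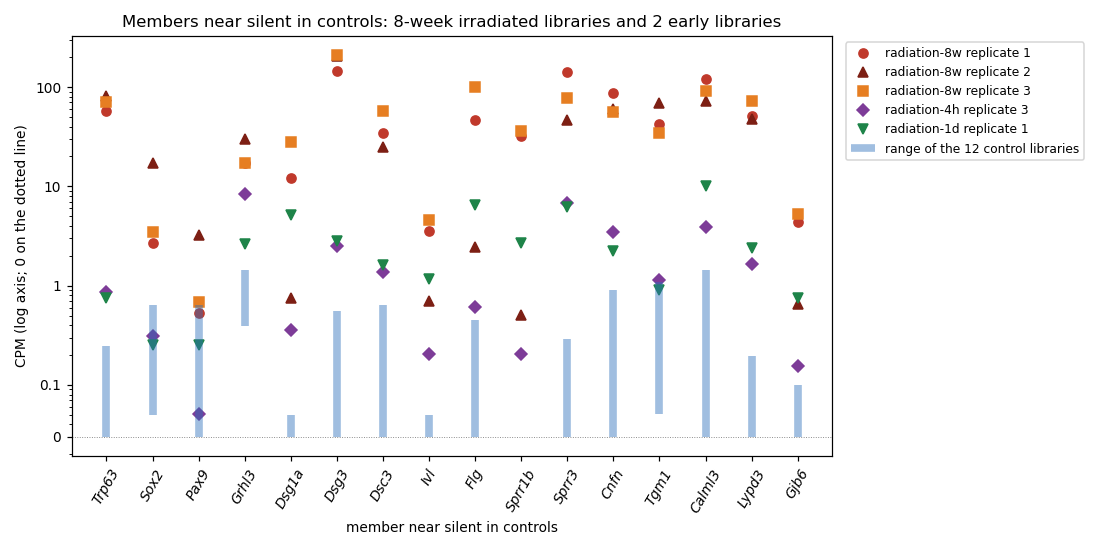
CPM (log axis) of the 16 near-silent members in the 3 radiation-8w libraries, in radiation-4h replicate 3 and in radiation-1d replicate 1, with blue bars for the range of the 12 control libraries and libraries at 0 on the dotted line. Radiation-1d replicate 1 lies above the control range for 13 members and radiation-4h replicate 3 for 14, but both lie under the 8-week libraries, apart from Dsg1a, Ivl, Flg, Sprr1b and Gjb6, where radiation-1d replicate 1 is above radiation-8w replicate 2.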

How the data were processed

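Poly(A) RNA of the 27 rectal samples was sequenced after preparation with a kit that does not mark strand, so antisense transcripts cannot be told apart. Per the labels, the authors used fastp 0.18.0, HISAT2, StringTie 1.3.1 and RSEM with build mm9. The deposited counts are whole reads per gene, made by a program that the sources do not name. The deposited FPKM, scaled by the authors for transcript length and depth, were used for levels between genes and for limma.

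The members and gene lists were chosen with earlier results of these data known. Counts were tested with edgeR 4.0.16 (quasi-likelihood, TMM, filterByExpr, R 4.3.3) in the groups compared, p-values were adjusted over all genes tested by Benjamini and Hochberg, and calls were made at 0.05. The 1-day mice were tested against control-4h, which the 4 h test shares. CPM were scaled by TMM over all 27 libraries. No 2 libraries agreed within sampling noise. Values in every library were given, by rule, for the 3 members of each role with the smallest p at 8 weeks, for up to 3 called in each direction at the other times and for the 5 largest ratios of 1 library to the next, and beyond the rule for members and other genes chosen after their values were seen. Where controls had 0 counts the fold was taken against 3 counts over the group, and for 1 to 3 counts an exact 95% interval was given. Both cover counting error only. The p-values measure the spread between 3 libraries a group.

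Same-numbered mice at 3 days correlated in their deviations from the group means (r between 0.360 and 0.444, other pairs at most 0.0594), so their numbers may mark pairs. The main test at 3 days did not use the numbers, and the fit with them as a block is given beside it. The alternatives were other scalings and filters, DESeq2 1.42.0, limma 3.58.1, all 9 groups in 1 fit, all 12 control libraries, a replicate block, leaving out each library and, added after seeing the data, summing gene copies and leaving out 2 libraries together. The scripts were tested on simulated data. Values of some genes of the other lists are not reported here. Coordinates are from GENCODE M1 (35 of 36 members matched). Figures were drawn with matplotlib 3.10.9.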

Additional observations from a re-analysis of the deposited data

Results flagged for a closer look

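The radiation effect on 11 members differed between 8 weeks and 2 weeks, by the interaction term of edgeR's quasi-likelihood test on all genes. Of these, Trp63, Dsc3, Cnfn and Calml3 passed the filter on low counts only through radiation-8w, so their number is no support. Of the 23 members that did not depend on radiation-8w to pass, 7 differed. Among the desmosomal members the log2 fold change was larger at 8 weeks by 8.06 for Dsg3, 7.14 for Dsc3, 2.41 for Pkp1 and 3.53 for Ppl (adjusted p = 0.0236, 0.0016, 0.00103 and 0.00106). The differences were 8.42 for the factor Trp63 (adjusted p = 0.0214), 1.79 for Sfn (0.0447) and 4.36 for Dmkn (0.0124). For the envelope precursors they were 6.81 for Lor (0.0176) and 5.28 for Sprr1a (0.0016). Lor had a fold change of 5.24 at 8 weeks and -1.56 at 2 weeks on the log2 scale, so its 2 effects had opposite signs. The fitted differences of 19.05 for Cnfn (0.0339) and 17.60 for Calml3 (0.00856) rest on 0 counts in all 3 irradiated libraries at 2 weeks, so they depend on the prior count and give no bound. In control-2w nearly all counts were in replicate 3 (0, 0 and 18 of Cnfn, 1, 1 and 29 of Calml3). Without control-2w replicate 3, Calml3 passed and Cnfn did not.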

How the results depend on the processing

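At 8 weeks 510 of 516 values of called members under the alternatives at the main threshold stayed on their side of the threshold, against 178 of 230 at 2 weeks, 121 of 142 at 3 days, 19 of 34 at 4 h and 222 of 253 for 8 weeks against 2 weeks, and no called member changed its direction. Where an alternative's own filter left a member out, no value was counted, kept or lost. At 8 weeks 14 of the called members had under 10 counts in each control library and had to differ, so their values are no support. Leaving out 1 library at a time gave 27 to 30 called members at 8 weeks, 3 to 16 at 2 weeks, 4 to 9 at 3 days, 0 to 2 at 1 day, 0 to 2 at 4 h and 6 to 18 for 8 weeks against 2 weeks. With an adjusted p under 0.01 and a log2 fold change over 1, 21 members were called at 8 weeks (all higher, so that Klf5, Dsg2, Sprr2a1, Tgm3, Dsg1a, Dsc2, Flg and Sprr1b were lost), 3 at 2 weeks, 4 at 3 days, 0 at 4 h and 5 for 8 weeks against 2 weeks, since the limit is stricter. At 1 day, where the main test called 0, DESeq2 called 2, the fit of all 9 groups 2, the test against all 12 control libraries 5, the sum of gene copies 1, and 3 were called without radiation-1d replicate 1 and control-4h replicate 2. At 4 h limma called 0 under each of its 3 settings, the fit of all 9 groups 1, and 1 (Ly6d, lower) was called without radiation-4h replicate 3 and control-4h replicate 2. For 8 weeks against 2 weeks DESeq2 called 22. The causes were not tested. Scaling by total counts moved the median log2 fold change of all genes at 8 weeks to 0.14 and turned no call round.

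With the replicate number as a block, 29 members were called at 8 weeks, 9 at 2 weeks (6 higher and 3 lower), 13 at 3 days, 1 at 1 day, 2 at 4 h and 11 for 8 weeks against 2 weeks, where Cnfn was lost and Flg gained. Outside 3 days same-numbered mice did not each correlate best with each other, so the number is not taken as a pairing there.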
